A study of Mus musculus with 6 samples.

Results

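The 9 genes described here have roles in early mouse germ cell specification and were followed on 6 expression arrays: the transcription factor genes *Prdm1*, *Prdm14* and *Tfap2c*, the chromatin protein gene *Dppa3*, the receptor gene *Kit* with its ligand gene *Kitl*, and the surface protein genes *Ifitm1*, *Ifitm2* and *Ifitm3*. The genes were chosen with earlier results of these data known. Probe sets were then taken by name, as those whose only gene symbol is 1 of these 9, which gave 13 of the 28898 probe sets with a single symbol. *Kitl* has 4 of these probe sets, *Tfap2c* has 2 and each of the other genes has 1. Probe sets of 1 gene share its transcript, so they are not independent measurements.

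All cultures were E14tg2a mouse ESCs or EpiLCs made from them. The ESC line carries a piggyBac transgene from which doxycycline switches on FLAG-tagged *Prdm14*, and such lines were grown from picked colonies. The labels describe ESCs kept without feeder cells in serum medium with LIF, and the methods also describe ESCs in N2B27 medium with LIF and inhibitors of GSK3 and MEK before EpiLC induction. No source used here says which of these media the ESC array's cells came from at harvest, and its label names no shRNA. EpiLCs (d2) were induced for 2 days with activin A, bFGF and knockout serum replacement on fibronectin, and carried a scramble shRNA. EpiLCs (d4) with the scramble shRNA had been replated at day 2 in GK15 medium and are labelled as day 4 without PRDM14. EpiLCs + PRDM14 carried the scramble shRNA and the label adds PRDM14, which the protocol induces with doxycycline after replating. Their label gives no day, and EpiLCs (d4) were taken as the same-day reference. A further array each was labelled *Tet1*/*Tet2* KD, for lentiviral shRNAs against both genes, in EpiLCs (d2) and in EpiLCs + PRDM14. There was 1 array per condition, so no difference has an error or a test, and precision is limited by how few arrays there are. A difference is called higher or lower when it reaches 1.5-fold, which is 0.585 on the log2 scale, and this is a size, not a statistical call.

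In the mouse embryo, BMP signals from tissue around the epiblast induce *Prdm1* and *Prdm14* in a few epiblast cells, and these factors with TFAP2C set up the primordial germ cell (PGC) state while the somatic program is silenced. EpiLCs resemble the epiblast from which PGCs arise. Several of the 9 genes are also active in ESCs or other tissues, so a signal from 1 of them does not by itself mark a germ cell.

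The levels are log2 signals after the median of each array was set to 5.28. As a rough guide to the signal that a probe set reads without its transcript, 83 probe sets of 78 olfactory and vomeronasal receptor genes were used. Their 95th percentile lay between 6.21 and 6.41 on the 6 arrays, and this level is called the receptor level here. Where 1 value of a pair lies under it, the difference rests on a reading that may hold no transcript signal. For some member differences of this kind, a second value is given with that reading raised to the receptor level of its array. Where both lie under it, the difference is between readings that the arrays do not tell from background. Signals of a marker list were summed on the linear scale and the log2 of the sum was taken, so bright probe sets weigh most. Naive pluripotency markers gave 13.22 for ESCs, 11.55 for EpiLCs (d2), 11.71 for EpiLCs (d4) and 12.98 for EpiLCs + PRDM14. Primed epiblast markers gave 11.22, 12.52, 12.77 and 10.71 on the same arrays. None of the 15 endoderm or 7 haematopoietic and endothelial marker probe sets passed the receptor level on any array. No probe set here has the symbol *Tet1* alone. The 2 probe sets of *Tet2* differed by 0.17 and 0.21 between EpiLCs (d2) labelled KD and EpiLCs (d2), and by -0.54 and -0.17 between the EpiLCs + PRDM14 arrays. The label KD is therefore used below only as a label.

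**Figure D1:**
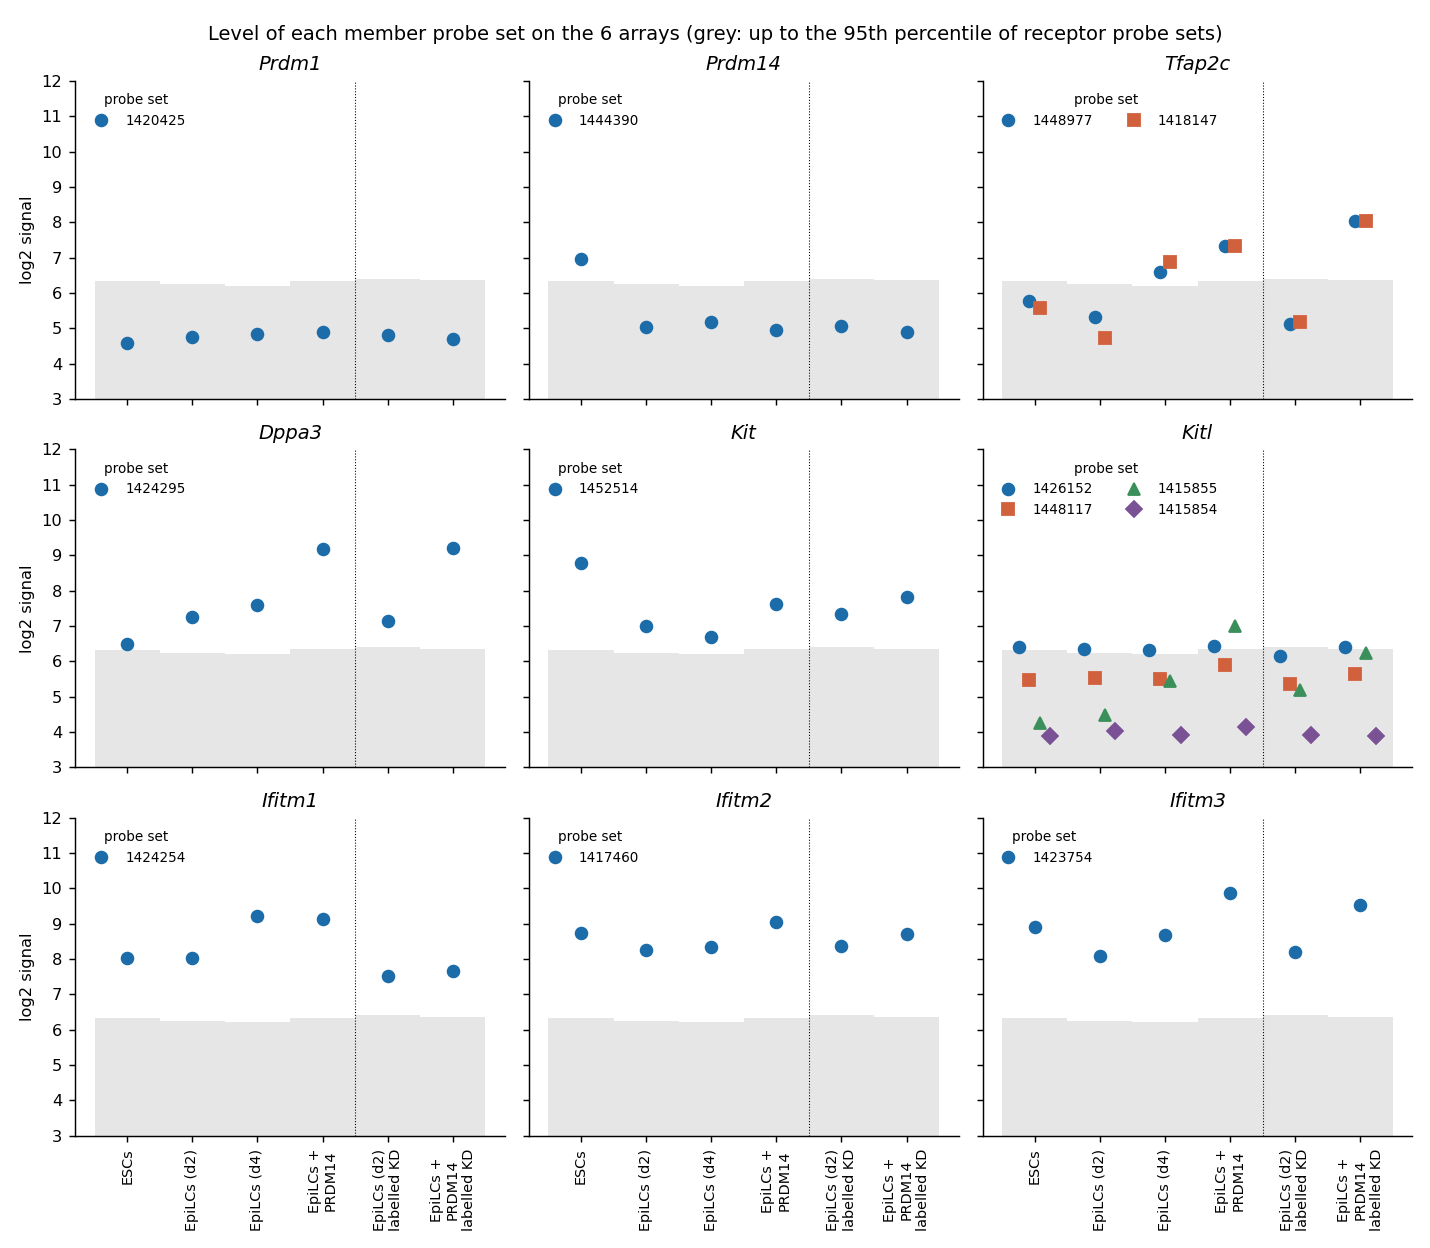
Level of each member probe set (log2 signal, y axis from 3 to 12) on the 6 arrays, 1 point per array and probe set, with the arrays labelled KD right of the dotted line. Grey columns reach up to the receptor level of each array. *Prdm1* lies in the grey on all 6 arrays, *Prdm14* leaves it in ESCs alone, and the *Ifitm* genes lie above it throughout.

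Comparing EpiLCs + PRDM14 with EpiLCs (d4) asks how the genes differ with the transgene switched on at a like time after replating. The protocol switches it on with doxycycline, so doxycycline and PRDM14 cannot be told apart here. Of the 9 genes, 6 had a probe set that was higher in EpiLCs + PRDM14: *Tfap2c*, *Dppa3*, *Kit*, *Kitl*, *Ifitm2* and *Ifitm3*. These were 6 of 13 member probe sets and none was lower, whereas 1.51% of all 28898 named probe sets were higher and 1.93% lower. As the genes were chosen with earlier results of these data known, this contrast describes them and tests nothing. The median difference of the members was 0.44, and that of all named probe sets was 0.0. *Prdm1*, *Prdm14* and *Ifitm1* differed by 0.05, -0.23 and -0.09. Against EpiLCs (d2), which were 2 days younger, 8 of 13 were higher and 0 lower, with 2.36% and 1.64% of all named probe sets. Both comparisons share the array of EpiLCs + PRDM14. RNA came from whole cultures, so a change in the number of cells with a transcript and a change per cell cannot be told apart.

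Some members already differed between the scramble EpiLC arrays without PRDM14. EpiLCs (d4) were older, replated and in another medium, and the parts of these cannot be told apart. Between EpiLCs (d4) and EpiLCs (d2), 4 of 13 probe sets were higher and 0 lower, with 1.96% and 0.903% of all named probe sets. They belong to *Tfap2c*, *Kitl* and *Ifitm1*, but both *Kitl* readings lay under the receptor level. With readings under that level raised to it, 2 member probe sets stayed past the threshold, and 522 of all named probe sets were past it. *Ifitm3*, at 0.57, lay just under the threshold.

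**Figure D2:**
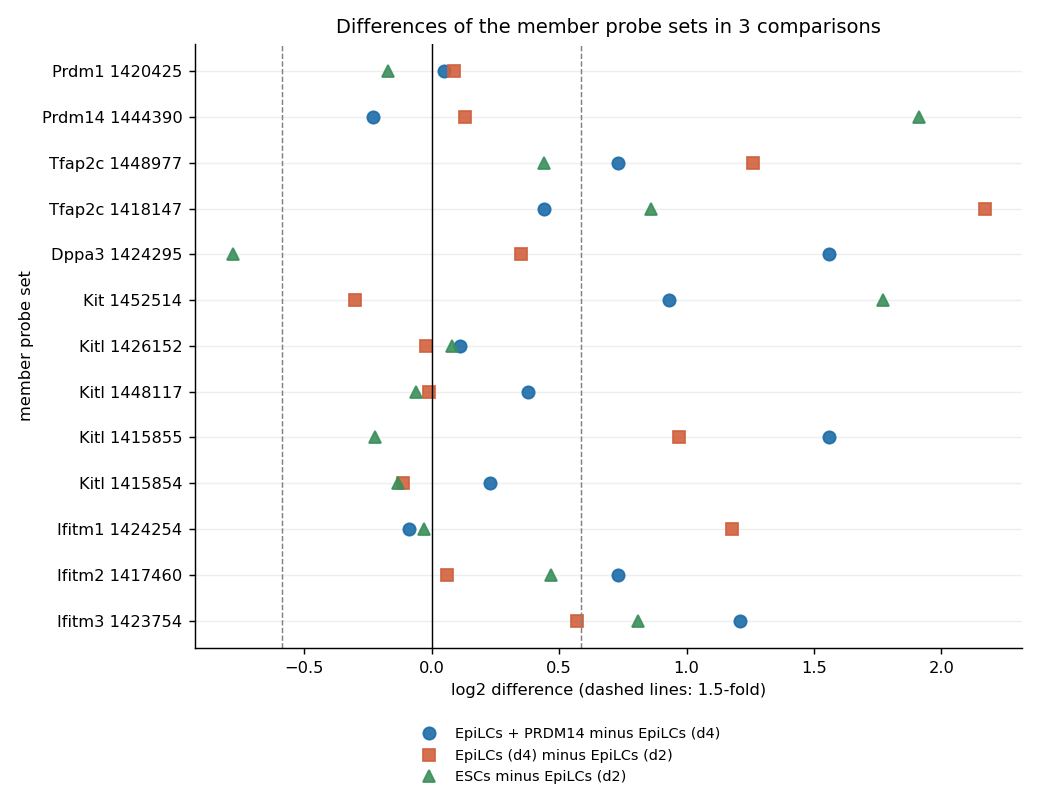
Log2 difference of each of the 13 member probe sets (rows) in 3 comparisons, with dashed lines at 1.5-fold. Points of EpiLCs + PRDM14 minus EpiLCs (d4) lie past the right line for 6 probe sets, and points of EpiLCs (d4) minus EpiLCs (d2) for 4. The comparisons with EpiLCs (d2) subtracted share that array.

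*Prdm1* encodes BLIMP1, a repressor that silences the somatic program in PGC precursors. Its probe set 1420425 gave 4.58 for ESCs, 4.75 for EpiLCs (d2), 4.84 for EpiLCs (d4) and 4.89 for EpiLCs + PRDM14. On the arrays labelled KD it read 4.80 in EpiLCs (d2) and 4.69 in EpiLCs + PRDM14. All 6 values lay within 0.31 of each other and under the receptor level, so no *Prdm1* transcript was detectable with this probe set, which does not show that it was absent. *Prdm1* also serves in endoderm, for whose 7 measured markers the log2 of the summed signal was 8.60 to 8.71 on all 6 arrays.

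*Prdm14* encodes the factor that the transgene supplies. Probe set 1444390 gave 6.95 for ESCs, 5.05 for EpiLCs (d2), 5.18 for EpiLCs (d4) and 4.95 for EpiLCs + PRDM14. The values were 5.06 and 4.91 in EpiLCs (d2) and EpiLCs + PRDM14 labelled KD. ESCs stood apart by 1.77 from the next array, and the other 5 values lay under the receptor level. The probe set was therefore not higher on either array whose label adds PRDM14. No source used here tells whether its probes lie in the part of *Prdm14* that the transgene carries, so this value checks the endogenous transcript at most and not the label. The other measured *Prdm* and AP-2 family genes, 13 genes with 21 probe sets, had 0 higher and 0 lower in EpiLCs + PRDM14 minus EpiLCs (d4). With 1.51% and 1.93% of all named probe sets, so short a list holds few or none anyway.

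*Tfap2c* encodes the AP-2γ factor that acts downstream of BLIMP1 in PGCs and is also a factor of trophoblast. Probe set 1448977 gave 5.77 for ESCs, 5.33 for EpiLCs (d2), 6.59 for EpiLCs (d4), 7.32 for EpiLCs + PRDM14, and 5.13 and 8.03 in EpiLCs (d2) and EpiLCs + PRDM14 labelled KD. Probe set 1418147 read 5.58, 4.72, 6.89, 7.33, 5.17 and 8.05 in the same order. Both probe sets list the same source sequence, put the 3 arrays after replating above the receptor level and the other 3 under it, and correlated with r = 0.979 over the 6 arrays. EpiLCs (d4) without PRDM14 read 1.26 and 2.17 above EpiLCs (d2). The day 2 readings were under the receptor level, and raised to it they leave differences of 0.34 and 0.65, so 1 of the 2 probe sets stayed past the threshold. EpiLCs + PRDM14 were a further 0.73 and 0.44 above EpiLCs (d4), so 1 of the 2 probe sets passed the threshold, and their mean of 0.58 lay just under it. Both probe sets were thus above the receptor level at day 4 already without PRDM14. With 1418147 the step from EpiLCs (d2) to EpiLCs (d4) was the larger with either day 2 reading. With 1448977 the larger step depends on the reading taken for day 2.

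Trophoblast markers other than *Tfap2c* moved over the same arrays. Of their 15 probe sets, 5 were higher and 0 lower in EpiLCs (d4) minus EpiLCs (d2), with 1.96% and 0.903% of all named probe sets. In EpiLCs + PRDM14 minus EpiLCs (d4), 0 were higher and 4 lower, with 1.51% and 1.93% of all named probe sets. The log2 of their summed signal was 9.81 for ESCs, 9.72 for EpiLCs (d2), 10.90 for EpiLCs (d4) and 10.05 for EpiLCs + PRDM14. On the arrays labelled KD it was 10.55 and 11.35. From EpiLCs (d4) to EpiLCs + PRDM14, *Tfap2c* and this sum thus went in opposite directions. The changes of this sum between EpiLCs (d2), EpiLCs (d4) and EpiLCs + PRDM14 lay mainly in *Krt8*, a keratin of simple epithelia. Its brighter probe set read 7.49, 9.58 and 8.19 on these arrays. *Ascl2*, a trophoblast transcription factor gene, moved with it: its brightest probe set read 5.57, 6.59 and 5.69 on these 3 arrays and another read 4.25, 5.44 and 4.24, of which the 6.59 alone lay above the receptor level. *Krt7*, another keratin gene, read 4.87, 6.06 and 5.55, all under it. The 2 probe sets of *Cdx2*, a defining trophoblast factor, stayed between 4.58 and 5.84 on all arrays. The part of these markers in the *Tfap2c* values was not tested.

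*Dppa3*, also called Stella, encodes a maternal and germline protein that protects DNA methylation in the early embryo and marks specified PGCs. Probe set 1424295 gave 6.49 for ESCs, 7.26 for EpiLCs (d2), 7.61 for EpiLCs (d4), 9.18 for EpiLCs + PRDM14, and 7.15 and 9.22 in EpiLCs (d2) and EpiLCs + PRDM14 labelled KD. Both arrays with PRDM14 were the highest and lay within 0.04 of each other, and ESCs were the lowest. EpiLCs + PRDM14 were 1.56 above EpiLCs (d4), 2.95-fold, and 26 of all named probe sets had a larger increase. They were also 2.69 above ESCs, 6.44-fold. *Dppa3* thus lay beyond the ESC level with PRDM14, where *Prdm14* and *Kit* lay under it.

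*Dppa3* lies in a cluster with *Gdf3*, *Apobec1* and *Nanog*. In EpiLCs + PRDM14 minus EpiLCs (d4), 1.51% of all named probe sets were higher and 1.93% lower. Of 16 probe sets of the 7 measured genes within 200 kb, 1 was higher and 0 lower in this comparison. This was *Nanog*, a core pluripotency factor gene and the next measured gene after *Dppa3* in RefSeq's order, with 10.32 for ESCs, 7.91 for EpiLCs (d2), 8.43 for EpiLCs (d4) and 10.25 for EpiLCs + PRDM14, a difference of 1.82 from EpiLCs (d4). Unlike *Dppa3*, it was as high in ESCs as with PRDM14. *Gdf3*, on the other side, differed by 0.35 and 0.37 with its 2 probe sets.

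*Kit* encodes the receptor tyrosine kinase that PGCs need to survive and migrate. Probe set 1452514 gave 8.78 for ESCs, 7.0 for EpiLCs (d2), 6.70 for EpiLCs (d4), 7.63 for EpiLCs + PRDM14, and 7.35 and 7.81 in EpiLCs (d2) and EpiLCs + PRDM14 labelled KD. ESCs were the highest by 0.97, and the other 5 arrays followed in steps that did not reach 1.5-fold. EpiLCs + PRDM14 were 0.93 above EpiLCs (d4), 1.91-fold, and 1.14 under ESCs. Against EpiLCs (d2) the difference of 0.63 lay just past the threshold. *Kit* is on in ESCs too, and the naive markers went the same way. In EpiLCs + PRDM14 minus EpiLCs (d4), 10 of their 13 probe sets were higher and 0 lower, with 1.51% and 1.93% of all named probe sets. The part of the naive markers in the *Kit* value was not tested.

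*Kitl* encodes the KIT ligand, which the surroundings of migrating PGCs supply. Its 4 probe sets did not tell 1 story. Probe set 1415855 gave 4.26 for ESCs, 4.48 for EpiLCs (d2), 5.45 for EpiLCs (d4), 7.01 for EpiLCs + PRDM14, and 5.19 and 6.24 in EpiLCs (d2) and EpiLCs + PRDM14 labelled KD. Only EpiLCs + PRDM14 passed the receptor level, 1.56 above EpiLCs (d4) and 2.53 above EpiLCs (d2), or 0.80 and 0.76 with those readings raised to the receptor level. Probe set 1448117 read 5.51 for EpiLCs (d4) and 5.89 for EpiLCs + PRDM14, and 1415854 read 3.92 and 4.15, which are differences of 0.38 and 0.23. Both stayed under the receptor level on all 6 arrays, and both list the same source sequence as 1415855. Probe set 1426152, from another source sequence, read 6.32 for EpiLCs (d4) and 6.43 for EpiLCs + PRDM14, and spanned 6.14 to 6.43 over the 6 arrays. A *Kitl* difference therefore rests on 1 of 4 probe sets, and the mean of all 4 differed by 0.57 in EpiLCs + PRDM14 minus EpiLCs (d4), just under the threshold.

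Of 37 probe sets of 14 genes that carry the signal of KIT inside the cell, 1 was higher and 3 lower in EpiLCs + PRDM14 minus EpiLCs (d4), where 1.51% and 1.93% of all named probe sets were, with a median of -0.05. The higher one was *Ptpn6*, a phosphatase that dampens receptor signals, at 5.46, under the receptor level, in EpiLCs (d4) and 6.49 in EpiLCs + PRDM14. The lower ones belong to *Spred1*, an inhibitor of the RAS-ERK pathway, which went from 8.58 to 7.58 with the probe set that differed most, and *Shc1*, an adaptor, which went from 7.66 to 6.81.

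The *Ifitm* genes encode small interferon-inducible membrane proteins. *Ifitm3*, or Fragilis, marks the epiblast region in which PGCs form, and *Ifitm1* appears in PGC precursors too. The promoter windows of *Ifitm1*, *Ifitm2* and *Ifitm3* are shown because the 3 genes are neighbours of 1 family whose signals differed. Each runs from 250 bases before the transcript start to 30 bases after it, 5′ to 3′, from RefSeq's table for GRCm38.p6. *Ifitm2* is at chr7:140955932-140956211 on the minus strand, *Ifitm1* at chr7:140967826-140968105 on the plus strand and *Ifitm3* at chr7:141010715-141010994 on the minus strand. Capitals mark matches to the core of the interferon-stimulated response element, which is GAAA, any 2 bases and GAAA again.
Ifitm2: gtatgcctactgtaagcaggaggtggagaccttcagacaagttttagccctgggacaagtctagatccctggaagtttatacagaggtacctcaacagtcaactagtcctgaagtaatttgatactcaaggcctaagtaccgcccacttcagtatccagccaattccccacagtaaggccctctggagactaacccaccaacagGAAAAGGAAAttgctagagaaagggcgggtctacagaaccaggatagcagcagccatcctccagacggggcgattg
Ifitm1: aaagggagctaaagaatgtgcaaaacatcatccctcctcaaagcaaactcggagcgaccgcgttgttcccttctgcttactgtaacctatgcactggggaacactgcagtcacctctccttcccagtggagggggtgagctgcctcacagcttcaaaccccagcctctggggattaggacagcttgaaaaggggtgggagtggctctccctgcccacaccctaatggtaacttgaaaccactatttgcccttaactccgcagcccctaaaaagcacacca
Ifitm3: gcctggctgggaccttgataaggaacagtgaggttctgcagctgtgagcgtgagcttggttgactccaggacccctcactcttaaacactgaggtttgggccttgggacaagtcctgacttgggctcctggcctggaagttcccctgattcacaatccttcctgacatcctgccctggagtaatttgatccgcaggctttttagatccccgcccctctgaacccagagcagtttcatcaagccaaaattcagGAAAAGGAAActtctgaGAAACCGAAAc
The *Ifitm2* window holds 1 match, that of *Ifitm3* holds 2, both after the start, and that of *Ifitm1* holds 0, and 3.28% of 32851 promoter windows of this length hold 1 or more on either strand. A match is a string of letters and not a shown binding site, and the lack of a match says only that these letters are not in the window. No window of the 6 members in the table holds the octamer ATGCAAAT, which 1.69% of all windows hold, or GGTCTCTAA, a PRDM14 motif, which 0.25% hold. An AP-2 motif, GCCNNNGGC, was found in *Kit*, and 15.4% of all windows hold it. This pattern is its own reverse complement, so a search of both strands finds the same places.

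*Ifitm3* probe set 1423754 gave 8.92 for ESCs, 8.10 for EpiLCs (d2), 8.67 for EpiLCs (d4), 9.88 for EpiLCs + PRDM14, and 8.20 and 9.52 in EpiLCs (d2) and EpiLCs + PRDM14 labelled KD. Both arrays with PRDM14 were above ESCs, which were above the 3 EpiLC arrays without it. EpiLCs + PRDM14 were 1.21 above EpiLCs (d4), 2.32-fold. *Ifitm2* probe set 1417460 went the same way over a smaller range, with 8.74 for ESCs, 8.27 for EpiLCs (d2), 8.33 for EpiLCs (d4), 9.06 for EpiLCs + PRDM14, and 8.36 and 8.71 on the arrays labelled KD. Its difference from EpiLCs (d4) was 0.73, 1.66-fold, and no pair of neighbours in its order was 1.5-fold apart.

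*Ifitm1* had another pattern. Probe set 1424254 gave 8.02 for ESCs, 8.04 for EpiLCs (d2), 9.23 for EpiLCs (d4), 9.14 for EpiLCs + PRDM14, and 7.53 and 7.65 in EpiLCs (d2) and EpiLCs + PRDM14 labelled KD. The scramble arrays after replating were the highest and lay within 0.09 of each other, whatever their PRDM14 label. EpiLCs (d4) were 1.18 above EpiLCs (d2), 2.27-fold. No source used here tells whether these probe sets also bind transcripts of the similar neighbouring genes, and such a share in their signals was not tested.

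In EpiLCs + PRDM14 minus EpiLCs (d4), 1.51% of all named probe sets were higher and 1.93% lower, so short lists hold few or none anyway. Of 25 probe sets of 18 other interferon-inducible genes, 0 were higher and 1 lower, with a median of -0.05. The lower one was *Gbp2*, at 4.53 for EpiLCs (d4) and 3.89 for EpiLCs + PRDM14, both under the receptor level. *Ifitm6*, *Ifitm7* and *Ifitm10* differed by 0.08, 0.06 and -0.04. Around *Ifitm1*, the 29 probe sets of 19 other genes within 200 kb, the members left out, held 0 higher and 0 lower in this comparison. This too is near the shares of all named probe sets.

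Other genes of PGC formation were followed from lists, again in EpiLCs + PRDM14 minus EpiLCs (d4). Of all named probe sets, 1.51% were higher and 1.93% lower there, so the counts below are small as those shares are. No probe set was found for *T*, *Nanos3*, *Alpl* and *Cxcr4* of these lists, so nothing is known of them here. Of 24 probe sets of 14 genes for BMP and WNT signals and their receptors and SMADs, 1 was higher and 0 lower. It was *Bmp4*, the ligand that induces PGC fate in the embryo, at 5.58 in EpiLCs (d4), 6.24 in EpiLCs + PRDM14 and 6.78 in ESCs, of which the ESC value alone was above the receptor level. Of 22 probe sets of 12 PGC transcription factors and partners, 0 were higher and 1 lower: *Lin28a*, an RNA-binding repressor of let-7, at 9.25 and 8.21. Of 20 probe sets of 8 surface and migration genes, 0 were higher and 3 lower, among them the chemokine *Cxcl12* at 5.35 and 4.26, both under the receptor level, and the adhesion molecule *Epcam* at 10.09 and 9.18.

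In EpiLCs + PRDM14 minus EpiLCs (d4), 1.51% of all named probe sets were higher and 1.93% lower. Of 14 probe sets of 13 later germ cell genes, 3 were higher and 0 lower, with a median of 0.22. Both probe sets of *Dazl*, a gene for an RNA-binding protein of germ cells, were among them, with 10.62 for ESCs, 8.13 for EpiLCs (d2), 6.85 for EpiLCs (d4) and 8.36 for EpiLCs + PRDM14 with the probe set that differed most. *Dazl* was thus 1.51 above EpiLCs (d4) and 0.23 above EpiLCs (d2), and the choice of reference array decides its call. The third was *Piwil2*, a PIWI protein of the germline, at 4.39 and 5.15, both under the receptor level.

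**Figure D3:**
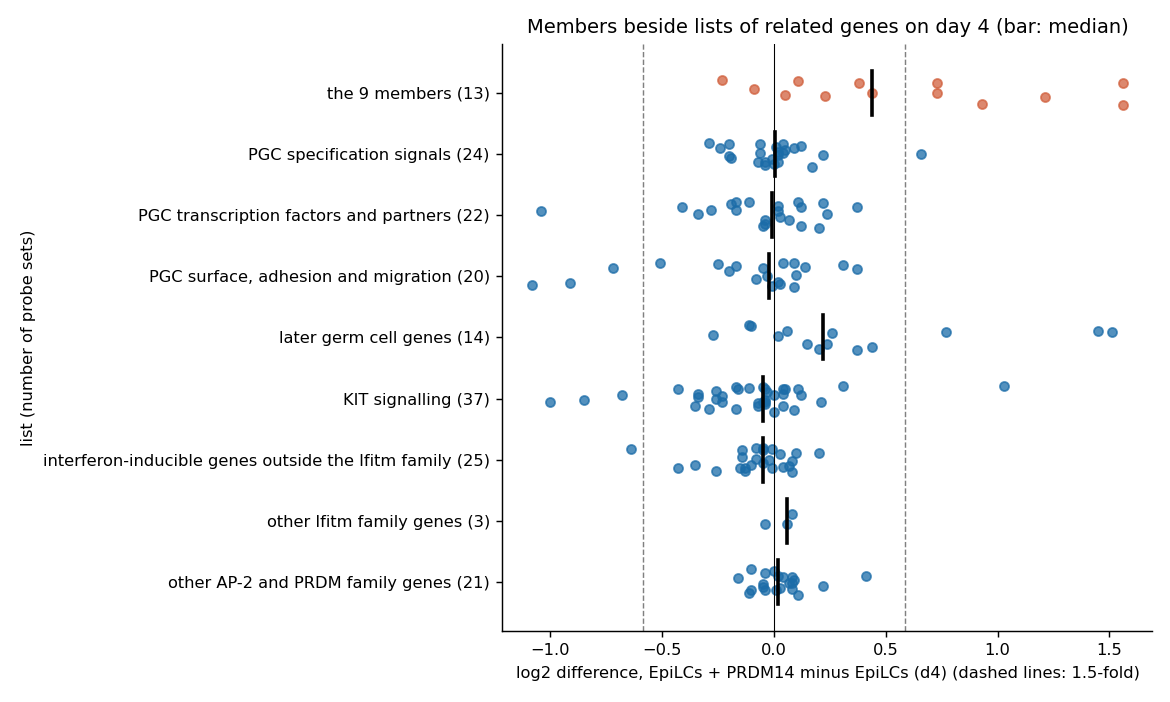
Log2 difference of EpiLCs + PRDM14 minus EpiLCs (d4) for each probe set (points, jittered along y) of the 9 members and of 8 lists of related genes, cell type markers not among them, with the number of probe sets in brackets, dashed lines at 1.5-fold and a black bar at the median. The members' median is 0.44 and those of the 8 lists lie between -0.05 and 0.22, while the naive and primed marker lists, not plotted, have medians of 1.11 and -0.68.

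Compared with ESCs, the members in EpiLCs + PRDM14 did not share a direction. Of 13 probe sets, 6 were higher in EpiLCs + PRDM14, those of *Tfap2c*, *Dppa3*, *Ifitm1*, *Ifitm3* and 1 of *Kitl*, and 2 were lower, those of *Prdm14* and *Kit*. The shares of all named probe sets were 2.55% and 1.87%. Of these 8 member probe sets, 4 had 1 reading under the receptor level, those of *Tfap2c*, *Kitl* and *Prdm14*. With that reading raised, *Tfap2c* differed by 0.98 and 1.0, *Kitl* by 0.68 and *Prdm14* by -0.61, all still past the threshold. In ESCs minus EpiLCs (d2), 4 were higher, for *Prdm14*, *Kit*, *Ifitm3* and 1 of 2 probe sets of *Tfap2c*, whose readings were both under the receptor level, and 1 was lower, *Dppa3*, with 2.21% and 2.09% of all named probe sets. Culture medium and the shRNA vector differ between these arrays along with the cell state, and their parts cannot be told apart.

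The arrays labelled *Tet1*/*Tet2* KD, the genes of DNA-oxidizing enzymes, allow the PRDM14 pair to be set beside the scramble pair. With EpiLCs (d2) as the reference, each pair spans day and PRDM14 together. For the scramble pair EpiLCs (d4) offer a reference without PRDM14. No array labelled KD at day 4 without PRDM14 was analysed here, so in that pair day and PRDM14 cannot be told apart. In EpiLCs + PRDM14 minus EpiLCs (d2) labelled KD, 5 of 13 member probe sets were higher and 0 lower, for *Tfap2c*, *Dppa3*, *Kitl* and *Ifitm3*, with 2.1% and 2.13% of all named probe sets. Both *Kitl* readings of this pair were under the receptor level. *Dppa3* differed by 1.91 in the scramble pair and by 2.07 in the pair labelled KD. *Ifitm3* differed by 1.78 and 1.32, *Kit* by 0.63 and 0.45 and *Ifitm2* by 0.79 and 0.35.

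Between the pairs, 3 member probe sets differed by 1.5-fold or more, as did 3.24% of all named probe sets. *Tfap2c* 1448977 differed by 1.98 in the scramble pair and by 2.90 in the pair labelled KD, but its other probe set by 2.61 and 2.88, and with the day 2 readings raised to the receptor level the gap between the pairs was 0.56, under the threshold. *Kitl* 1415855 differed by 2.53 and 1.05, and the 3 other *Kitl* probe sets differed between the pairs by no more than 0.18. With readings under the receptor level raised to it, *Kitl* 1415855 differed by 0.76 and 0.0. *Ifitm1* differed by 1.09 and 0.12. In these arrays the *Ifitm1* gap was thus within the scramble pair, and both arrays labelled KD were low. EpiLCs (d4) without PRDM14 were already 1.18 above EpiLCs (d2), and EpiLCs + PRDM14 minus EpiLCs (d4) was -0.09.

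Array by array, EpiLCs (d2) labelled KD minus EpiLCs (d2) had 1 member probe set higher, *Kitl* 1415855 at 0.71 with both readings under the receptor level, and 0 lower, with 2.97% and 2.43% of all named probe sets. *Ifitm1* at -0.52 lay just under the threshold. In EpiLCs + PRDM14 labelled KD minus EpiLCs + PRDM14, both probe sets of *Tfap2c* were higher, by 0.72. *Kitl* 1415855 at -0.76 and *Ifitm1* at -1.49 were lower. Of all named probe sets, 3.37% were higher and 3.21% lower. The *Kitl* reading labelled KD was under the receptor level, and raised to it the difference was -0.64. *Ifitm1* was the member furthest down, 2.8-fold, and 21 of all named probe sets were further down. Trophoblast markers were higher for 7 of 15 probe sets and lower for 0 in this comparison, and naive markers were higher for 7 of 13 in EpiLCs (d2) labelled KD minus EpiLCs (d2). The part of these in the *Tfap2c* values was not tested. Arrays labelled KD had lower deposited medians than the others, and setting a common median can leave offsets of single probe sets. Between an array labelled KD and another array, the label and such offsets cannot be told apart.

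**Figure D4:**
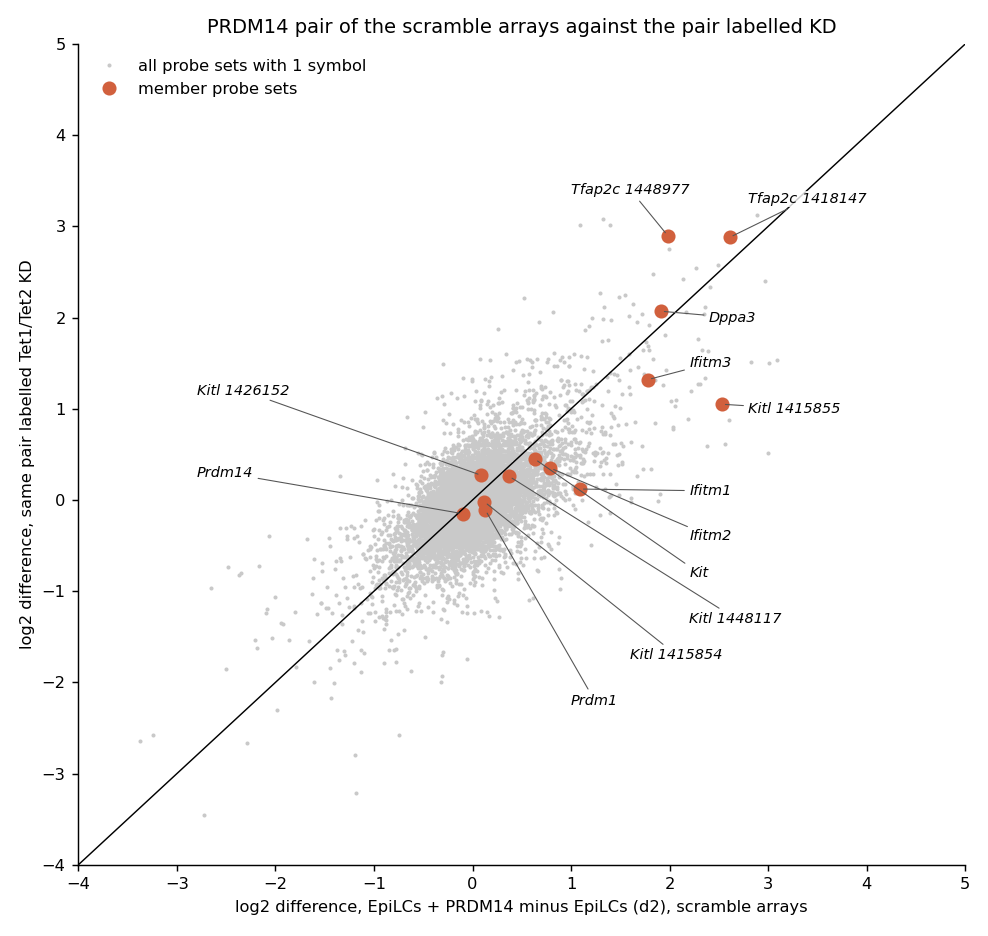
Log2 difference between EpiLCs + PRDM14 and EpiLCs (d2), with scramble arrays on the x axis and arrays labelled KD on the y axis, with the members in orange, all 28898 named probe sets in grey and the line of equal differences. *Dppa3* lies near the line, at 1.91 and 2.07, while *Ifitm1* and *Kitl* 1415855 lie under it.

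For the 7 genes with a range of at least 1 over the 6 arrays, the 3 genes with the most similar pattern were looked up by Pearson correlation among 1306 genes. Over 6 arrays many genes correlate highly, and 5 to 16 genes per member reached r = 0.95, so these are descriptions. *Tfap2c* was followed most closely by *Tpm1* at r = 0.979, then *Klf3* and *Slc25a4*. *Tpm1* encodes a tropomyosin and gave 7.99 for EpiLCs (d2), 8.82 for EpiLCs (d4) and 9.27 for EpiLCs + PRDM14 labelled KD. *Dppa3* was followed by *Mt4*, *Plk2* and *Gas6*, of which *Mt4*, a metallothionein gene, had r = 0.974. *Ifitm3* was followed by *Tpm1* with another probe set, *Ninl* and *Klf2*, and *Klf2*, a naive pluripotency factor gene, had r = 0.979. *Kit* was followed by *Acadm*, *Crxos* and *Tmem64*, *Prdm14* by *Mdfic*, *Fzd5* and *Magea4*, *Kitl* by *2900026A02Rik*, *Fhl1* and *Cisd1*, and *Ifitm1* by *Prkar2b*, *Asap1* and *4930503L19Rik*, with r from 0.956 to 0.989.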

How the data were processed

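RNA was labelled with a 3′ IVT kit and hybridized to Affymetrix mouse arrays. The authors deposited log2 values from the RMA method (robust multi-array average), run at its defaults. Per the submitters' processing notes the software was Affymetrix Expression Console, and its version and a genome build are not given in the sources used here. Arrays labelled KD had medians of 5.07, the others 5.28 to 5.29, so each array was shifted to a common median. The 104 control probe sets were left out. Gene symbols came from GEO's platform annotation, which gives 1 symbol for 28898 probe sets, several for 551 and none for 15588.

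With 1 array per condition, no test was possible. Differences of at least 1.5-fold were counted over all named probe sets and for the members, in 8 comparisons. The call was checked on simulated data. The members and gene lists were chosen with earlier results of these data known. The text names all members, at most 4 genes per list past the threshold in EpiLCs + PRDM14 minus EpiLCs (d4), largest difference first, and 3 genes of similar pattern per member. Marker genes, *Nanog* and *Gdf3* were named after their values were seen. Alternatives were a 2-fold threshold, unshifted values, renewed quantile normalization, a filter on dim probe sets, other rules from probe sets to genes, other correlations and, added after the data were seen, readings under the receptor level raised to it. Promoters and gene order came from RefSeq (GRCm38.p6), with windows for 6 members. *Tfap2c*, *Prdm14* and *Dppa3* have none in the table used. Python 3.11.15, pandas 2.3.3, NumPy 2.4.6 and matplotlib 3.10.9 were used.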

Additional observations from a re-analysis of the deposited data

Results flagged for a closer look

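From EpiLCs (d2) to EpiLCs + PRDM14, 2 member probe sets went one way on the scramble arrays and the other way on those labelled KD, by small amounts. *Prdm1* differed by 0.13 on the scramble arrays and by -0.11 on those labelled KD, so the difference between the pairs was -0.24. *Kitl* 1415854 differed by 0.12 and -0.02, so the difference was -0.14. Both lay under the receptor level on all 6 arrays, and with 1 array per condition the difference between the pairs was not tested.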

How the results depend on the processing

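No paired analysis was possible because each condition has 1 array. With a 2-fold threshold, the number of member probe sets past it went from 6 to 3 in EpiLCs + PRDM14 minus EpiLCs (d4), from 5 to 2 in ESCs minus EpiLCs (d2), from 1 to 0 in EpiLCs (d2) labelled KD minus EpiLCs (d2), and from 4 to 1 in EpiLCs + PRDM14 labelled KD minus EpiLCs + PRDM14. In the last comparison the number was 2 with values as deposited. No shares of all named probe sets are given for these settings or for 1 value per gene, so those counts describe the members alone. Without the shift the arrays labelled KD read 0.21 lower, which made *Tfap2c* 0.50 with both probe sets there, and made *Kitl* 1415855 0.50 and *Ifitm1* -0.73 in EpiLCs (d2) labelled KD minus EpiLCs (d2). With 1 value per gene in EpiLCs + PRDM14 minus EpiLCs (d4), the number of higher member genes went from 6 to 5 with the brightest probe set and to 4 with the mean of its probe sets, without *Tfap2c* and *Kitl*. Renewed quantile normalization moved none of 117 differences by over 0.1. The genes of most similar pattern depended on the measure. With Spearman correlation, 1 of 3 stayed for *Tfap2c*, *Dppa3*, *Kitl* and *Ifitm3*, and 0 for *Prdm14* and *Ifitm1*. With Pearson correlation over the ESC and scramble arrays, 1 of 3 stayed for *Prdm14*, *Dppa3* and *Ifitm1*, and 0 for *Tfap2c*, *Kit* and *Kitl*. With values under the receptor level raised to it, an alternative chosen after seeing the data, the number went from 4 to 2 in EpiLCs (d4) minus EpiLCs (d2) and from 1 to 0 in EpiLCs (d2) labelled KD minus EpiLCs (d2). Of all 28898 named probe sets, 522 and 533 were past the threshold in these comparisons with raised values. Without raising, 567 were higher and 261 lower in the first, and 859 and 703 in the second. The receptor level limits what the signals of *Prdm1*, *Prdm14*, *Tfap2c* and *Kitl* can show on the arrays where they lie under it.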
